A study of Mus musculus with 15 samples.

Results

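The 34 genes described here encode the contractile apparatus of heart muscle: thin and thick filament proteins, titin and the M-band proteins, the proteins of the Z-disc, and the desmin filament with its chaperone. They were taken by symbol from the deposited gene counts, which hold 17447 genes, and a gene stayed in if it had 10 or more counts in 3 or more libraries. All 34 met this rule, and all 34 were among the 13021 genes that passed the filter on low counts and were tested. The rule on counts used no difference between groups, but the genes were listed with earlier results of these data known.

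Cardiac mRNA of 15 male C57BL/6J mice, aged 6 to 8 weeks at the start, was sequenced 18 weeks after surgery, with 3 mice in each group. WTSHAM mice were wild type and had a sham operation, and their labels name no vector. WTCKD mice were wild type with chronic kidney disease (CKD) from subtotal nephrectomy and were given the vector in week 2, while WTCKD + RNLS mice were given AAV9-cTnT-RNLS, a virus that expresses renalase (RNLS) from the cardiac troponin T promoter and thus in cardiomyocytes. KOCKD and KOCKD + RNLS mice had the same surgery and the same injections on a rnls-/- background, a knockout made with TALEN in the same strain. No sham-operated knockout was among the libraries, so the knockout was compared only under CKD. Rnls itself was not analysed here, so the genotype labels were not checked against it. Between 10480788 and 13424078 reads were counted on genes in each library.

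In the sarcomere, myosin motors of the thick filament pull on actin thin filaments, and calcium binding to the troponin complex on tropomyosin switches this on. Titin spans from the Z-disc, where thin filaments of neighbouring sarcomeres are anchored by alpha-actinin, to the M-band, where myomesins crosslink the thick filaments. The Z-disc also carries proteins that sense or transmit strain, such as telethonin and muscle LIM protein. Mutations in many of these genes cause inherited cardiomyopathy, and the relative use of their isoforms shifts between fetal, adult and diseased hearts.

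Together the 34 genes took between 8.57% and 11.55% of the counted reads of a library. On the scale of FPKM, the deposited level per length of gene, their means over the 15 libraries ran from 11160 to 0.232. Cardiac actin (Actc1) was highest at 11160 FPKM, although Acta1 and Acta2 are near-identical to it and reads may be divided among them. Troponin T (Tnnt2, 6988 FPKM), the essential light chain Myl3 (6972), troponin I (Tnni3, 6853), the regulatory light chain Myl2 (4828) and troponin C (Tnnc1, 4766) followed, and the ranges of Tnnt2, Myl3 and Tnni3 over the libraries overlapped. Tropomyosin (Tpm1, 2147), the titin cap telethonin (Tcap, 1605), myosin-binding protein C (Mybpc3, 1284), muscle LIM protein (Csrp3, 1223) and alpha-B-crystallin (Cryab, 1209) made up the next tier. Titin (Ttn) drew 3383 to 7274 CPM (counts scaled to library size) in a library, but with 117466 bases it was the longest of the genes tested, and per length its mean was only 43.2 FPKM.

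**Figure D1:**
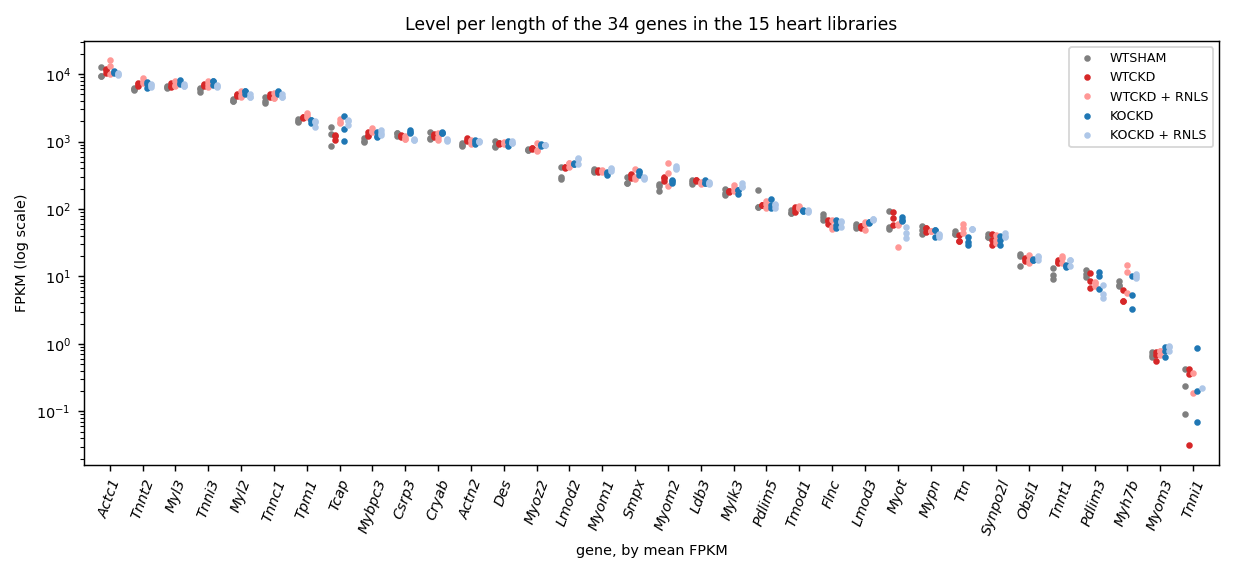
Deposited FPKM (log scale) of each of the 34 genes in each of the 15 libraries, with the genes in order of their mean and the groups in colour. Actc1 leads at a mean of 11160 FPKM, and Tnni1, which is listed at 0 in some libraries and then not drawn, is last at 0.232 FPKM.

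The slow skeletal and fetal troponins were the other extreme. Slow troponin T (Tnnt1) had a mean of 15.4 FPKM, and on that scale it stood at 0.183% ± 0.0307 (SD, n = 3) of Tnnt2 in WTSHAM. Slow troponin I (Tnni1), the fetal form that Tnni3 replaces after birth, had 0 to 28 counts per library and reached 10 counts in 5 libraries, so that a change in it was hardly detectable at this depth. The M-band gene Myom3 was also low, at 0.754 FPKM and 50 to 86 counts. Apart from Tnni1, the widest ranges of CPM between libraries belonged to Myh7b, a slow-type myosin heavy chain that spanned a 4.63-fold range, and to myotilin (Myot), which spanned a 3.43-fold range.

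The hearts carried the cardiomyocyte genes that the labels call for. The summed level of 12 cardiomyocyte genes outside the sarcomere, such as Pln and Ryr2, lay between 52340 and 60970 CPM in every library. Fast skeletal muscle genes were at or near 0, with 0 to 6 counts of Myh1, Myh2, Myh4, Actn3 and Tnnc2, the defining genes of the list. Of the other 7 skeletal muscle genes listed, Mylpf, Tnnt3, Tnni2, Pvalb and Atp2a1 had at most 48 counts, while Myl1 had 280 to 1296 and Casq1 71 to 458. Pvalb was the only one of them past the test in a comparison, higher in WTCKD + RNLS than in WTCKD. Genes of the atrium varied, and their summed level was 831 to 1432 CPM in WTCKD + RNLS and 977 to 1307 in KOCKD + RNLS, against 997 to 4382 in WTCKD, 1037 to 3717 in KOCKD and 1159 to 2704 in WTSHAM. Much of this sum was Pam, with group means of 761 to 1336 CPM. Myl7 varied far more, with means of 134 CPM in WTSHAM, 300 in WTCKD, 40.4 in WTCKD + RNLS, 288 in KOCKD and 0.579 in KOCKD + RNLS. The group means of Myl4 and Sln had the same order. Libraries also differed in a length contrast, the median log2 level of genes over 6000 bases minus that of genes under 1500 bases after centring each gene. This was -0.41 to -0.22 in KOCKD and 0.21 to 0.28 in KOCKD + RNLS, and WTCKD + RNLS replicate 2 stood apart from its group at -0.39. The paper does not state which part of the heart was taken for RNA, and Myl7 ran from 4 to 9994 counts between libraries. Fewer cells of a type, less RNA per cell and a different part of the heart cannot be told apart here.

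For 3 genes on which the comparisons turn, Tnnt1, Ttn and Csrp3, the 250 bases before the RefSeq start are shown, since they are the sequence nearest to the start of transcription. They are given 5′ to 3′ on the strand of the gene, build GRCm38.p6, at chr7:4515976-4516225 for Tnnt1, chr2:76982548-76982797 for Ttn and chr7:48848052-48848301 for Csrp3 (the more upstream of its 2 starts), all on the minus strand. Capitals mark matches to the motifs searched on both strands, and a match is a description of the letters, not a binding site.
Tnnt1: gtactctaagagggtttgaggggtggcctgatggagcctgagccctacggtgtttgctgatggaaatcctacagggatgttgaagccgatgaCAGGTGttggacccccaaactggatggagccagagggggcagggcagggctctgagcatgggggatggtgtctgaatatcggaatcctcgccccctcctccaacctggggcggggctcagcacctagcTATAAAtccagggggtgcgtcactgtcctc
Ttn: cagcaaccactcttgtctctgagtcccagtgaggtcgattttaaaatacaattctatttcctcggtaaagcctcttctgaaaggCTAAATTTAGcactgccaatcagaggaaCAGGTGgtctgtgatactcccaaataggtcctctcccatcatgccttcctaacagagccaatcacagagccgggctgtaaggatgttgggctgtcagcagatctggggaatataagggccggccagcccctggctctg
Csrp3: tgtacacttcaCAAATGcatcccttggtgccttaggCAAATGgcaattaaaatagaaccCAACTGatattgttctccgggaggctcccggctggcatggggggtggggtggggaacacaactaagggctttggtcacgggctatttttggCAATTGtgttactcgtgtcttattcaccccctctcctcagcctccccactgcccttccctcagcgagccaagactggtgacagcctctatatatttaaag

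The Tnnt1 window held a TATA box (TATAAA) from -30 to -25 relative to the start and an E-box (CANNTG). In the Ttn window there was a MEF2 site from -166 to -157, the motif bound by myocyte enhancer factors, and an E-box. Csrp3 had 4 E-boxes and no other match. Of the 34 genes, 29 had an entry in the promoter table (not Myom2, Tcap, Myot, Cryab and Lmod3). For these only the most upstream start of each gene was used, while the 32851 windows of all genes include every start listed, so the shares differ in unit. A MEF2 site was found in 17.2% of these 29, those of Mybpc3, Myom3, Myoz2, Synpo2l and Ttn, against 2.92% of all 32851 windows of the same length. The CArG box, the motif of serum response factor, was in 13.8% (Actc1, Ldb3, Myl3, Myom1) against 1.47% of all. The MCAT motif, CATTCC, was in 24.1% against 12.6%. The GATA motif, AGATAA, was in 20.7% against 9.99%, and the E-box in 82.8% against 66.2%. The TATA box was in 6.9% against 12.4%, and CACGTG, the form used by the circadian clock and itself counted among the E-boxes, in 6.9% (Actn2, Myh7b) against 6.02%.

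The comparison of WTCKD with WTSHAM addressed CKD in wild-type hearts. WTCKD mice had both the nephrectomy and the vector, and WTSHAM mice have no vector in their labels, so surgery and vector cannot be told apart here. Of the 34 genes, only Tnnt1 passed an adjusted p under 0.05 (edgeR quasi-likelihood test, Benjamini-Hochberg over the 13021 genes), and it rose. Of all genes tested, 0.599% rose and 1.7% fell at this threshold. Across the 34 genes 23 had a positive and 11 a negative log2 fold change, with a median of 0.08 against -0.01 over all genes. At the threshold of the study, an unadjusted p under 0.05 and a minimum fold change, Tnnt1, the thin filament nucleator Lmod2 and the M-band gene Myom2 were higher and none was lower, where 3.66% of all genes were higher and 7.63% lower.

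Tnnt1 (chr7:4456172-4467984 on mm9, minus strand), the slow skeletal form of the tropomyosin-binding troponin, was at 11.2, 13.3 and 9.05 CPM in WTSHAM and at 17.0, 15.7 and 18.4 CPM in WTCKD. The 3 WTCKD values lay above all WTSHAM values. Its log2 fold change was 0.61 (SE 0.15), which is 1.52-fold, with an adjusted p of 0.0424. Levels were 16.6, 22.3 and 20.2 CPM in WTCKD + RNLS, 15.2, 14.8 and 13.9 in KOCKD and 18.3, 18.0 and 14.8 in KOCKD + RNLS, all above the WTSHAM range. The call was near the threshold: leaving out any library but WTSHAM replicate 2 gave an adjusted p of 0.0680 to 0.157, fitting the 6 libraries alone gave 0.117, and removing each library's trend on gene length gave 0.0528. In FPKM, Tnnt1 was still a minor form, at 0.233% ± 0.00972 (SD, n = 3) of Tnnt2 in WTCKD.

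Next in order of p were the thick filament genes Mybpc3 and Myl2, which did not pass. Mybpc3, whose product regulates the motors, had 4814, 3997 and 4200 CPM in WTSHAM and 5291, 4960 and 5932 CPM in WTCKD, without overlap, for a log2 fold change of 0.31 (SE 0.10, adjusted p = 0.0984). Its other levels were 5917, 6525 and 6776 CPM in WTCKD + RNLS, 5710, 5053 and 5019 in KOCKD and 5547, 6274 and 5228 in KOCKD + RNLS. Myl2, the ventricular regulatory light chain, had 10030, 10060 and 9418 CPM in WTSHAM against 12270, 11370 and 12480 CPM in WTCKD, also without overlap, for a log2 fold change of 0.29 (SE 0.09, adjusted p = 0.103). DESeq2 called 3 genes here, Tnnt1, Mybpc3 and the alpha-actinin gene Actn2.

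The thin filament genes had log2 fold changes of -0.04 (Lmod3) to 0.34 (Lmod2), with 7 of 8 above 0. Those of Tnnt2, Tnni3, Tnnc1, Tpm1, Actc1 and the pointed-end cap Tmod1 were 0.26, 0.26, 0.22, 0.19, 0.11 and 0.15. Ttn was at -0.27 (adjusted p = 0.229), while the 12 Z-disc genes were divided, with 6 above and 6 below 0, from -0.31 for Pdlim3 to 0.27 for Actn2. Desmin (Des) and Cryab were at 0.08 each. Of the 9 atrial genes tested, 9 were above 0 with a median of 1.02 and none passed, and 6 of 6 erythrocyte genes were below 0 with a median of -2.75 and none passed. All 8 fibroblast genes (median -0.15) and all 8 macrophage genes (median -0.35) were below 0, with none past the test. Of 8 endothelial genes 6 were above 0 (median 0.12), as were 7 of 12 cardiomyocyte genes outside the sarcomere (median 0.02), with none past the test. The part of these marker genes in the values of the 34 genes was not tested.

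The comparison of WTCKD + RNLS with WTCKD addressed the effect of cardiac RNLS in wild-type hearts with CKD. Both Ttn and Tcap rose, and no gene of the 34 fell. In this contrast 2.19% of all genes rose and 2.28% fell. A positive log2 fold change was seen for 26 of the 34 genes, including 8 of 8 thin filament, 5 of 5 thick filament and 5 of 5 titin and M-band genes, and the median was 0.12 against 0.01 over all genes. Without WTCKD + RNLS replicate 2, the library that stood apart, this median was 0.05. At the threshold of the study Ttn, Tcap, Myh7b and Myom2 were higher and none was lower, against 6.31% and 8.09% of all genes. WTCKD also served as the treated group of the CKD comparison above, so the signs in both contrasts are not independent.

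Ttn (chr2:76542037-76820604 on mm9, minus strand), the elastic filament that sets passive stiffness, was at 3904, 3783 and 4886 CPM in WTCKD and at 6226, 5564 and 7274 CPM in WTCKD + RNLS. All 3 treated hearts lay above the WTCKD hearts and also above the WTSHAM hearts, which had 5096, 4784 and 5314 CPM. The log2 fold change against WTCKD was 0.60 (SE 0.12, adjusted p = 0.00912), or 1.52-fold. It kept its call when each of the 6 libraries was left out in turn (0.49 to 0.72) and when the length trend of each library was removed (0.41, adjusted p = 0.0155). At the length of Ttn, the longest gene tested, that trend rests on few genes of like length. WTCKD + RNLS replicate 2, the library with the lowest length contrast of its group, had 5564 CPM, still above every WTCKD library.

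Tcap (chr11:98245125-98246267 on mm9, plus strand), which joins the ends of titin molecules at the Z-disc, was at 997, 1124 and 1153 CPM in WTCKD and 2071, 2003 and 1861 CPM in WTCKD + RNLS. These groups did not overlap, and the log2 fold change was 0.86 (SE 0.23, adjusted p = 0.0476), or 1.81-fold. WTSHAM, in contrast, spread from 793 to 1567 CPM, with values of 1567, 1159 and 793. The call did not survive leaving out any of the 6 libraries, where the log2 fold change stayed between 0.79 and 0.90 and the adjusted p between 0.0768 and 0.158.

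Myh7b, a slow-type heavy chain whose gene hosts a muscle microRNA, was at 39.1, 37.9 and 57.9 CPM in WTCKD and 109, 55.3 and 140 CPM in WTCKD + RNLS. WTCKD + RNLS replicate 2 fell within the WTCKD range, and the log2 fold change of 1.17 (SE 0.33) did not pass at an adjusted p of 0.0528. Without that library it was 1.45 (adjusted p = 0.0114), and it passed also with RLE size factors, without the filter on low counts, with DESeq2 and with length offsets. It did not pass in the other 5 of the 6 fits without a library, with a log2 fold change down to 0.87 and an adjusted p up to 0.193. Its WTSHAM values were 67.1, 65.6 and 76.2 CPM. Myom2 likewise had its lowest treated value in that library, with 3099, 1497 and 2239 CPM in WTCKD + RNLS against 1619, 1731 and 1906 in WTCKD (log2 fold change 0.38, adjusted p = 0.231), and was called without that replicate.

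Genes of other cell types moved in this contrast as well. All 8 endothelial genes of the marker list had a negative log2 fold change and 4 passed the test, all 8 fibroblast genes did and 2 passed, and all 8 macrophage genes did with none passing. Of the 9 atrial genes tested, 9 were below 0, with a median of -2.20 and 1 past the test. All 6 erythrocyte genes were above 0 with a median of 2.76 and 1 past the test, and their summed level was 38.1 to 107 CPM in WTCKD and 218 to 529 CPM in WTCKD + RNLS. The cardiomyocyte genes outside the sarcomere had a median of 0.14, 10 of 12 were above 0 and none passed. The part of these shifts in the values of the 34 genes was not tested.

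**Figure D2:**
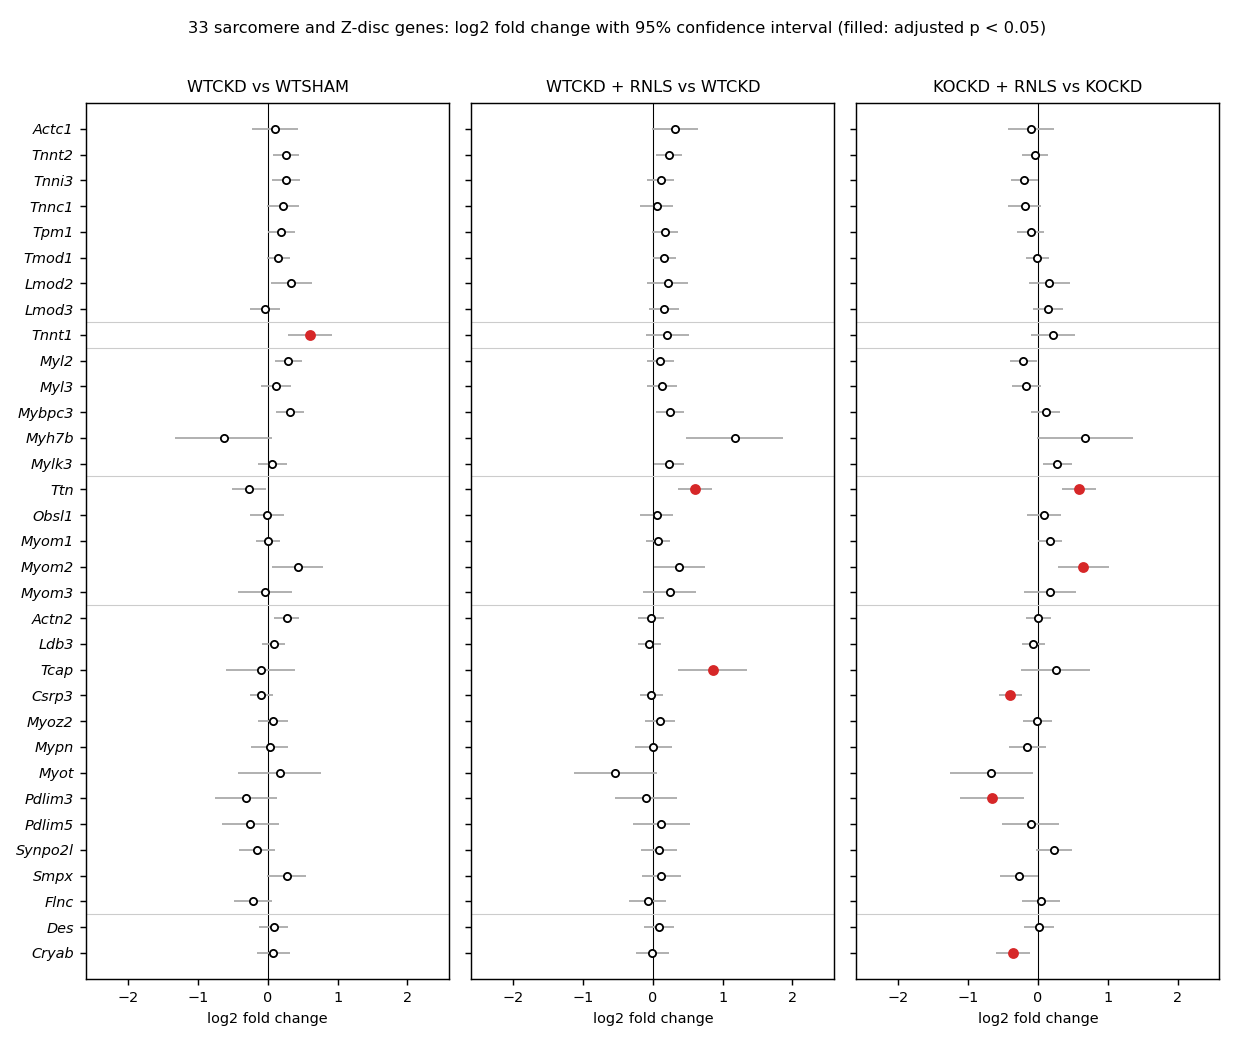
Log2 fold change of 33 of the 34 genes (Tnni1, with 0 to 28 counts, is not drawn) in 3 comparisons, with bars for the 95% confidence interval of the fit and filled points at an adjusted p under 0.05. Tnnt1 is filled under CKD, Ttn and Tcap with RNLS in wild type, and Ttn, Myom2, Csrp3, Pdlim3 and Cryab with RNLS in the knockout.

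In KOCKD + RNLS against KOCKD, the same question on the knockout background, 5 of the 34 genes passed. Ttn and Myom2 rose, and Csrp3, Cryab and Pdlim3 fell. Of all genes, 9.05% rose and 7.04% fell, which is 2095 genes. With the length trend of each library removed, 710 genes were called. The 34 genes were balanced, with 16 above and 18 below 0 and a median of -0.01, against -0.01 over all genes. The 9 atrial genes were again all below 0, with 3 past the test and a median of -1.34. The cardiomyocyte genes outside the sarcomere had a median of -0.06, with 4 of 12 above 0, and 1 higher and 1 lower past the test. Of 8 endothelial and 8 macrophage genes 7 each were below 0, with 2 of each list past the test, of 8 fibroblast genes 5 were below 0 with 1 past the test, and all 4 adipocyte genes were below 0 with none past the test. The part of these shifts was not tested. By role, 5 of 5 titin and M-band genes were above 0, and 6 of 8 thin filament and 8 of 12 Z-disc genes were below 0. The threshold of the study added Myot to the lower genes, giving 2 higher and 4 lower, where 12.2% and 10.1% of all genes passed.

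Ttn was at 3383, 3911 and 4484 CPM in KOCKD and at 6001, 5860 and 5826 CPM in KOCKD + RNLS. The groups were far apart, and the treated hearts differed among themselves by far less than the KOCKD hearts. The log2 fold change was 0.59 (SE 0.12, adjusted p = 0.00477) and every fit without a library kept the call (0.49 to 0.70). Removing the length trend, however, left a log2 fold change of 0.11 (adjusted p = 0.508). Ttn, at 117466 bases, lies at the edge of that trend, where few genes are of like length (the 4th longest had 72060). The length contrast also separated these groups without overlap, so length trend and group cannot be told apart here. The difference between the Ttn effects in knockout and wild type was -0.01, with a 95% confidence interval from -0.36 to 0.33. This holds without length offsets, with which the Ttn effects were 0.41 in wild type and 0.11 in the knockout, and the difference between those was not tested.

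Myom2 (chr8:15057653-15133541 on mm9, plus strand), the adult M-protein of the M-band, was at 1723, 1691 and 1517 CPM in KOCKD and 2554, 2761 and 2432 CPM in KOCKD + RNLS. No treated heart reached down to the untreated range, and the log2 fold change was 0.65 (SE 0.17, adjusted p = 0.0201), or 1.57-fold. WTSHAM was lowest of all groups at 1179, 1307 and 1428 CPM. Relative to myomesin Myom1, which crosslinks thick filaments in all striated muscle, Myom2 in FPKM was at 57.3% ± 9.21 in WTSHAM, 76.2% ± 5.17 in WTCKD, 94.7% ± 35.3 in WTCKD + RNLS, 76.4% ± 0.805 in KOCKD and 107% ± 6.46 in KOCKD + RNLS (SD, n = 3 each). The large spread in WTCKD + RNLS came from 61.6% to 132%. Its call was lost without KOCKD replicate 2 or 3 or KOCKD + RNLS replicate 1 or 2 (adjusted p between 0.0507 and 0.0690), and with length offsets (0.49, adjusted p = 0.0656).

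Csrp3 (chr7:56085768-56103400 on mm9, minus strand), which encodes muscle LIM protein, a strain sensor that binds telethonin, was at 1320, 1346 and 1445 CPM in KOCKD and 1063, 1030 and 1032 CPM in KOCKD + RNLS. It fell by 0.40 on the log2 scale (SE 0.08, adjusted p = 0.00477), to 0.760 of the KOCKD level, with no overlap. In wild type it was at 1187, 1127 and 1161 CPM with vector and 1073, 1276 and 1078 CPM with RNLS, a log2 fold change of -0.02 (adjusted p = 0.921), and in WTSHAM at 1317, 1248 and 1148 CPM. The fall in the knockout kept its call without any library in turn (-0.42 to -0.35), but with length offsets it was -0.10 (adjusted p = 0.285).

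Cryab (chr9:50560863-50564738 on mm9, plus strand), a small heat shock protein that protects desmin and titin, was at 2689, 2837 and 2733 CPM in KOCKD and 2072, 2244 and 2133 CPM in KOCKD + RNLS. The groups were apart, the log2 fold change was -0.36 (SE 0.11, adjusted p = 0.0416), and the call was lost in each of the 6 fits without a library (adjusted p from 0.0740 to 0.134). Levels in the other hearts were wider, at 2853, 2135 and 2198 CPM in WTSHAM, 2558, 2300 and 2723 in WTCKD and 2194, 2908 and 2446 in WTCKD + RNLS. Pdlim3 (chr8:46970839-47004900 on mm9, plus strand), an actinin-binding LIM protein, was at 22.9, 13.2 and 20.1 CPM in KOCKD and 15.03, 9.51 and 11.1 CPM in KOCKD + RNLS. Here the groups overlapped, and the log2 fold change of -0.66 (SE 0.21, adjusted p = 0.0470) lost its call without KOCKD replicate 1 or 3 or KOCKD + RNLS replicate 2 or 3 (adjusted p from 0.118 to 0.188). Its levels were 25.7, 20.5 and 18.6 CPM in WTSHAM, 16.8, 21.5 and 13.95 in WTCKD and 14.6, 17.3 and 16.9 in WTCKD + RNLS.

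**Figure D3:**
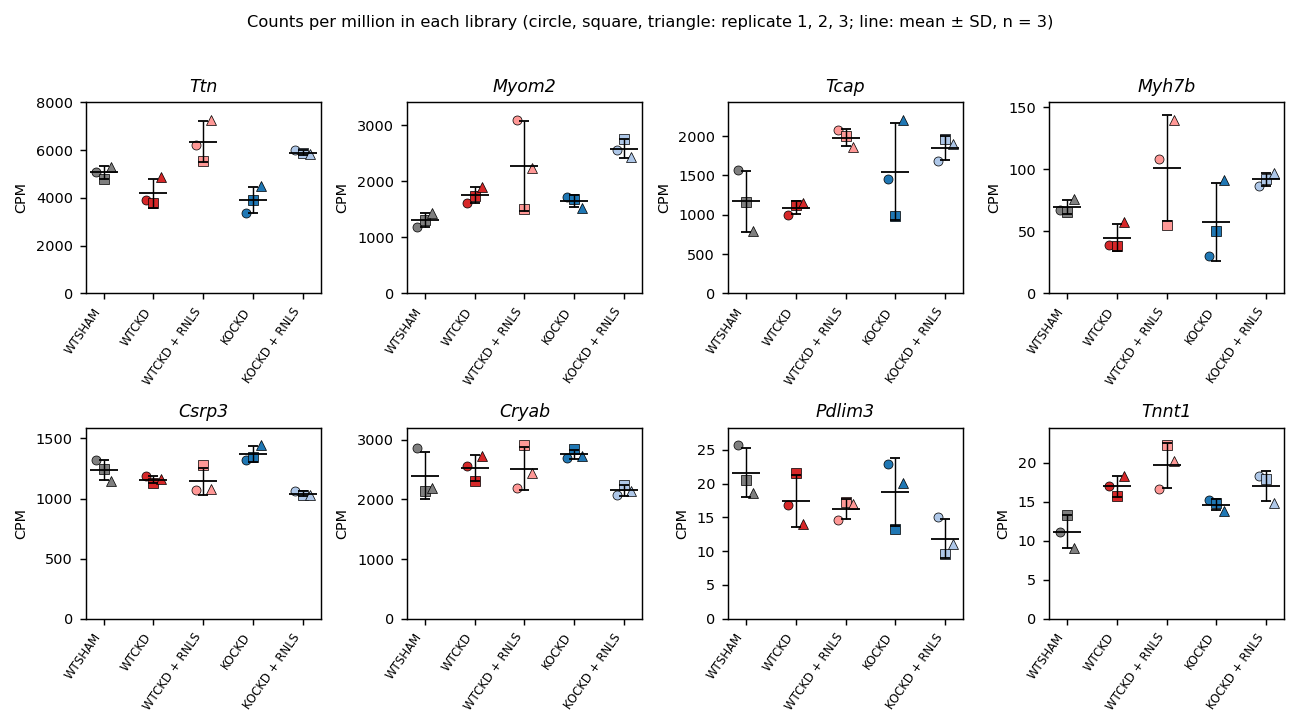
CPM of 8 genes in each library, with the replicate as the symbol shape, the group on the horizontal axis and a line with bars for the mean ± SD of 3 mice. Ttn lies between 5826 and 6001 CPM in KOCKD + RNLS, above the 3383 to 4484 CPM of KOCKD, while Csrp3 lies between 1030 and 1063 CPM, below the 1320 to 1445 CPM of KOCKD.

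The length contrast bears on the knockout comparison, because it separated KOCKD from KOCKD + RNLS without overlap. Across all 13021 genes the log2 fold change in this comparison correlated with the logarithm of gene length at r = 0.403, and across the 34 genes at r = 0.346 (genes are not independent replicates). The 10 of the 34 genes shorter than 1500 bases had a median log2 fold change of -0.13 against -0.30 for all such short genes, and the 9 longer than 6000 bases had 0.17 against 0.25 for all long genes. With the length trend of each library removed, none of the 5 genes kept its call, and Tnnt1 was called instead. In the wild-type RNLS comparison the correlation with length was 0.052 over all genes and 0.23 across the 34, and the calls of Ttn and Tcap held with the trend removed. In WTCKD against WTSHAM it was -0.144 over all genes and -0.452 across the 34. There the short genes of the 34 had a median of 0.17 and the long ones -0.04, against 0.07 and -0.11 for all such genes. Between KOCKD and WTCKD it was -0.281 over all genes and -0.353 across the 34.

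Over the 15 libraries, the length contrast went with Cryab at Pearson r = -0.851 (Spearman rho = -0.804), with Csrp3 at r = -0.818 (rho = -0.839) and with Ttn at r = 0.603 (rho = 0.607). Without the 2 libraries farthest from the median contrast these were -0.792, -0.824 and 0.745, and after centring on group means -0.729, -0.872 and 0.386. For Tcap and Tnnt1 r was 0.028 and -0.165. All these points share the library's depth and composition, and the contrast contains the long and short genes of the 34 themselves. No p is given, since the pairs were chosen after their values were seen, and the part of the length contrast in each fold change was not tested beyond the offsets.

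**Figure D4:**
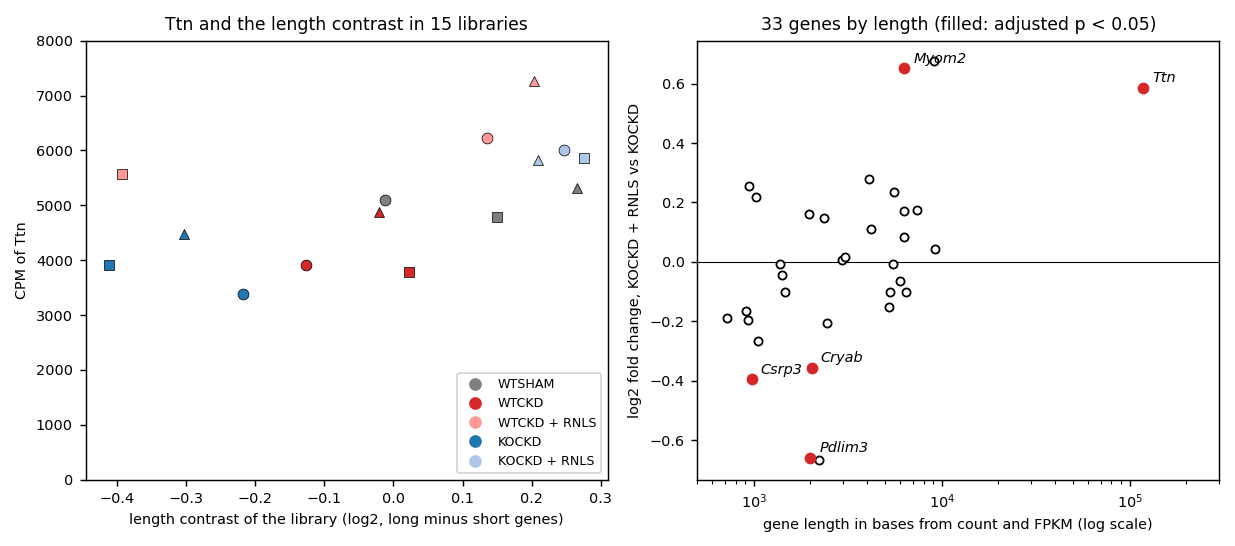
Left, CPM of Ttn against the length contrast of each library (log2; symbol shapes as replicates, colours as groups). Right, log2 fold change of 33 genes in KOCKD + RNLS vs KOCKD against gene length (log scale), where Ttn at 117466 bases is at 0.59 and Csrp3 at 973 bases is at -0.40.

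Between KOCKD and WTCKD, which differ in genotype under the same vector, none of the 34 genes passed in edgeR or in DESeq2, as was the case for 0% of all genes in edgeR. At an unadjusted p under 0.05 there were 3 of the 34. These were Csrp3 (log2 fold change 0.24, edgeR adjusted p = 0.444), the leiomodin Lmod3 (0.23, adjusted p = 0.487) and Tcap (0.50, adjusted p = 0.487), all with higher means in the knockout. Tcap was at 0.16 without KOCKD replicate 3 and at 0.74 without KOCKD replicate 2, and Csrp3 was at 0.08 with length offsets. Of all genes, 1318 reached that unadjusted p in edgeR, and DESeq2 called 10. At the threshold of the study only Tcap was higher and none was lower, against 1.94% and 3.68% of all genes. Lmod3, which elongates thin filaments, was at 151, 150 and 152 CPM in KOCKD, above the 122, 129 and 135 CPM of WTCKD. It was at 147, 120 and 129 CPM in WTSHAM, 119, 164 and 149 in WTCKD + RNLS and 170, 163 and 169 in KOCKD + RNLS. Tcap in KOCKD was 1450, 986 and 2207 CPM, a range that took in all WTCKD values and all 3 of KOCKD + RNLS (1678, 1963 and 1896 CPM), and the log2 fold change of Tcap with RNLS in the knockout was 0.25 (adjusted p = 0.483).

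The difference between the RNLS effects of both genotypes was tested as an interaction. No gene of the 34 passed in edgeR, 6 had an unadjusted p under 0.05, and DESeq2 called 1 (Csrp3, adjusted p = 0.0331), while 0% of all genes passed in edgeR and 2288 had an unadjusted p under 0.05, and DESeq2 called 374 of all genes. Csrp3 had the smallest p at a difference of -0.38 on the log2 scale (SE 0.11, adjusted p = 0.140), followed by Myl2 (-0.31, adjusted p = 0.227) and Tnni3 (-0.31, adjusted p = 0.241). Without WTCKD + RNLS replicate 2 these were -0.27, -0.18 and -0.19. The interaction correlated with gene length over all genes at r = 0.344, with a median of -0.33 for all short genes, and length offsets gave -0.05 for Csrp3, -0.23 for Myl2 and 0.03 for Tnni3. The threshold of the study gave none higher and Csrp3 and Cryab lower, with 6.78% and 8.43% of all genes. Of the 34 genes 26 had a negative difference, including 8 of 8 thin filament genes, and the median was -0.15 against 0.01 over all genes. Without WTCKD + RNLS replicate 2 that median was -0.09.

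Myl2 was at 12350, 15030 and 11480 CPM in WTCKD + RNLS, 12310, 14080 and 13450 in KOCKD and 11090, 11110 and 12330 in KOCKD + RNLS. Only the last group was below its own control on average, and it overlapped with it. Tnni3, the adult inhibitory troponin, was at 5856, 5387 and 4949 CPM in WTSHAM, 6608, 6067 and 6694 in WTCKD and 6704, 7897 and 6310 in WTCKD + RNLS. Its knockout values were 6466, 7673 and 7204 CPM in KOCKD and 6278, 5909 and 6459 CPM in KOCKD + RNLS, just apart from each other. Over the 15 libraries Tnni3 and Myl2 followed each other closely (r = 0.973, rho = 0.968, 0.911 after centring on group means), as did Ttn and Myh7b (r = 0.900, rho = 0.864, 0.913 after centring). These are descriptions of libraries that share depth and composition.

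The other members passed in no comparison. Tnni1, with CPM of 0.19 to 2.26 in KOCKD and 0 to 0.58 in KOCKD + RNLS, overlapped between these groups and had an adjusted p of 0.202. Myot, a Z-disc crosslinker of actin, was 62.8 to 215 CPM over all libraries, with log2 fold changes of -0.54 with RNLS in wild type (adjusted p = 0.306) and -0.67 in the knockout (adjusted p = 0.117). The kinase of the regulatory light chain, Mylk3, was at 0.23 and 0.28 in these contrasts, with the groups apart in both, at adjusted p of 0.199 and 0.0661, and DESeq2 called it in the knockout. Smpx, a small muscle protein of the costamere, was at -0.27 in the knockout (adjusted p = 0.171). Ranges of at most 1.64-fold were seen for the titin-linked obscurin-like Obsl1 (93.1 to 134 CPM), Myom1 (1944 to 2512), Ldb3 (1363 to 1669) and Actn2 (2461 to 3399). The same held for the calcineurin-binding Myoz2 (987 to 1402), the titin- and nebulin-binding Mypn (198 to 303), Synpo2l (167 to 245), filamin C (Flnc, 478 to 785) and Des (2488 to 3304). Pdlim5 spanned 657 to 1267 CPM, where the top value was WTSHAM replicate 1 and the next was 918.

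Tcap followed the clock gene Dbp across libraries. Clock genes moved in both RNLS comparisons, with 9 of 15 higher and 3 lower past the test in wild type and 8 higher and 2 lower in the knockout. Of these, Dbp, an output transcription factor of the clock, had 28.0 CPM on average in WTCKD and 132 in WTCKD + RNLS. Across the 15 libraries log2 Tcap and log2 Dbp had r = 0.973 and rho = 0.925, r was 0.957 without the 2 libraries farthest in Dbp, and 0.986 after centring on group means. Among 13020 other genes Dbp had the highest correlation with Tcap, followed by the clock genes Bhlhe41 (0.943), Ciart (0.930) and Nr1d2 (0.916). This pair was picked after the values were seen, so it carries no p, and all points share their library's depth. The time of day of collection is not given in the sources used here, and its part in the Tcap values was not tested. Ttn also went with clock genes over all libraries, most closely with Per3 (r = 0.849, and 0.61 after centring), and with Dbp at 0.602 (0.144 after centring). For Myh7b and Per3 r was 0.808 (0.688 after centring).

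**Figure D5:**
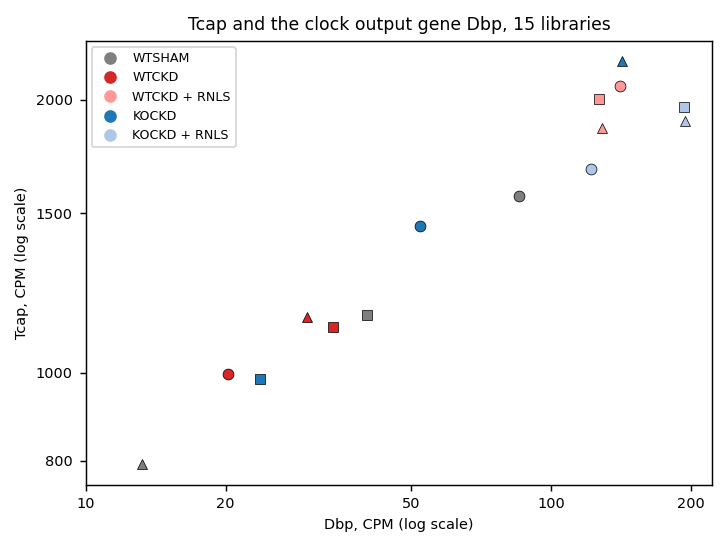
CPM of Tcap against CPM of Dbp (both log scales) in the 15 libraries, with replicates as symbol shapes and groups as colours. The points lie along a line (r = 0.973) from WTSHAM replicate 3 at 793 CPM of Tcap to KOCKD replicate 3 at 2207 CPM.

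Among related genes outside the 34, the same model gave counts by list. Of 10 tested myosins and myosin-binding proteins, none passed under CKD or with RNLS in wild type, while in the knockout 2 rose and 3 fell. The list includes the atrial light chains Myl7 and Myl4, whose means were 288 and 282 CPM in KOCKD and 0.579 and 1.68 CPM in KOCKD + RNLS. Myh6, the adult alpha heavy chain, rose by 0.52 on the log2 scale (adjusted p = 0.00217), and Myh14 by 0.54 (adjusted p = 0.00519). At the threshold of the study 3 of these 10 were higher and 5 lower in the knockout, against 12.2% and 10.1% of all genes. Over the 10 genes the log2 fold changes in the knockout ran from -8.95 to 1.61, the latter in a gene that did not pass the adjusted p. The beta heavy chain gene Myh7, named after its values were seen, passed the adjusted p in no comparison. In FPKM it was 0.41% to 4.45% of Myh6 over all libraries. Its mean was 1.45% ± 1.33 in KOCKD and 3.005% ± 1.26 in KOCKD + RNLS, with overlap. In WTCKD it was 0.812% ± 0.298 and in WTCKD + RNLS 1.21% ± 0.648 (SD, n = 3 each).

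Of 23 tested genes of the Z-disc, I-band and costamere, 1 fell under CKD, where 1.7% of all genes fell. With RNLS in wild type 1 rose and 2 fell, against 2.19% and 2.28% of all genes. With RNLS in the knockout 6 rose and 3 fell, against 9.05% and 7.04% of all genes. Ankrd23, a titin-binding ankyrin repeat protein that responds to strain, fell by 1.06 in wild type (adjusted p = 0.000329) and by 1.17 in the knockout (adjusted p = 0.000528). Cavin4, of the muscle caveolae, fell by 0.48 in wild type (adjusted p = 0.0317). Neb, the giant thin filament ruler of skeletal muscle, fell by 1.46 under CKD (adjusted p = 0.0224). Palld, which binds actinin, rose by 0.56 with RNLS in the knockout (adjusted p = 0.00236).

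Of 14 other thin filament genes, none passed under CKD, and 2 fell in each RNLS comparison. Among all genes, 2.28% fell with RNLS in wild type and 7.04% in the knockout. Tpm4, a cytoskeletal tropomyosin, fell by 0.53 in wild type (adjusted p = 0.00278) and by 0.60 in the knockout (adjusted p = 0.00113), together with Tpm3 in wild type (-0.46) and Tpm2 in the knockout (-0.83). Of 14 chaperones 1 fell under CKD (Unc45b, the myosin chaperone, -0.36), 1 rose with RNLS in wild type (Smyd2, a methyltransferase, 0.47) and 1 fell with RNLS in the knockout (Hspb1, -0.74).

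Of 9 ubiquitin ligases of the sarcomere, 1 rose under CKD and 2 fell in each RNLS comparison. Among all genes, 0.599% rose under CKD, and 2.28% fell with RNLS in wild type and 7.04% in the knockout. Fbxo32, the atrophy-linked atrogin, rose by 0.38 under CKD (adjusted p = 0.0331) and fell by 0.50 with RNLS in wild type (adjusted p = 0.00575), where Trim63 fell by 0.45 (adjusted p = 0.0189). In the knockout Trim63 fell by 0.35 and Klhl40 by 0.46. Of 13 muscle transcription factors, none passed under CKD, 2 rose in wild type with RNLS (Nkx2-5, 0.37, and Myocd, 0.31), and in the knockout 3 rose and 1 fell, with Tead1 (0.46) and Mef2c (0.43) first in order of p. No gene of these lists passed in edgeR between KOCKD and WTCKD or in the interaction, as no gene of all did.

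On the mm9 annotation, the exons of 27 of the 34 genes overlapped no other gene. For 7 they did, among them Tmod1, which shares 1287 exonic bases with Tstd2 on the opposite strand, Ttn with 453 bases shared with an opposite transcript, Des with 220 on the opposite strand, and Tnni3 with 86 bases of a gene on its own strand. The library kit marks strand, but the strand setting of the counting is not given in the sources used here, so reads in these stretches may belong to either gene.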

How the data were processed

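Hearts of 15 mice in 5 groups were compared, with 3 libraries per group taken as separate mice, so that p-values measure the spread between these libraries. The authors trimmed the reads with Trimmomatic, mapped them with hisat2 (to mm9 in their supplement, while the processing notes list GRCm39), counted them per gene with htseq-count, and deposited these raw counts. The authors also deposited FPKM computed with cufflinks. From the values, these equal the counts per library total and gene length, so a length was derived for each gene as count over FPKM. Tool versions, annotation and strand setting are not given in the sources used here.

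Counts were analysed in R 4.3.3 with edgeR 4.0.16 (TMM, filterByExpr with a minimum count of 10, quasi-likelihood fit over all 15 libraries with the group as the only term, adjusted p over 13021 genes). Depth was 10480788 to 13424078 counts per library, and the common biological coefficient of variation was 0.132. The study's own test, DESeq, was replaced by edgeR, with its threshold as an alternative. CPM are counts scaled to the TMM-adjusted library size, and log2 fold changes are model estimates. Length contrasts used log2 CPM. Alternatives were RLE, no filter, DESeq2 1.42.0, the 6 libraries alone, a replicate block, length offsets and leaving out each library. The code was tested on simulated data. Figures used matplotlib 3.10.9.

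Values in every library are given for genes with an adjusted p under 0.05 in any comparison and, where fewer than 3 passed, for the 3 with the smallest p. Of the related lists at most 2 called genes per comparison are named. The genes and lists were chosen with earlier results of these data known. Dbp and its relation to Tcap were singled out after their values were seen. Promoter sequences are from RefSeq (GRCm38.p6), gene positions from GENCODE M1 (mm9).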

Additional observations from a re-analysis of the deposited data

How the results depend on the processing

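Of the counts of genes called, these moved by over 1.5 times. The threshold of the study gave 3 under CKD, 4 with RNLS in wild type, 1 between the genotypes and 2 in the interaction, against 1, 2, 0 and 0. DESeq2 gave 3 under CKD and 1 in the interaction, the 6 libraries alone 0 under CKD and 9 with RNLS in the knockout (Myl2, Mylk3, Myot and Smpx added to the 5), and length offsets 0 under CKD and 1 with RNLS in the knockout. The cause was not tested. Over all genes, length offsets gave 710 calls with RNLS in the knockout against 2095 without them, and 738 against 582 in wild type. Leaving out each library gave 0 to 3 under CKD, 1 to 3 with RNLS in wild type, 2 to 3 in the knockout, and 0 to 0 between the genotypes and in the interaction, which also takes 1 mouse from groups of 3. The median of the 34 genes under CKD was 0.02 to 0.17 over these fits, and 0.17 without WTSHAM replicate 1, in which Pdlim5 and Myot stood apart. Of the fold changes of the named genes over all alternatives, 179 kept their side of the threshold, 34 lost the call and 9 gained it, and the sign changed only for Tnni3 in the interaction with length offsets (0.03 against -0.31, neither called). RLE scaling moved the median of all genes by at most 0.0081.

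The replicate numbers did not pair the mice: the correlation of the deviations of same-numbered libraries ran from -0.36 to 0.23. With the replicate number as a block, the number of genes called was 1 under CKD, 2 with RNLS in wild type, 4 with RNLS in the knockout and 0 in the other contrasts. In wild type Myh7b (adjusted p = 0.0234) took the place of Tcap (0.0684), and in the knockout Cryab did not pass (0.0629).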
